A study of Mus musculus with 12 samples.

Results

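The genes described here encode subunits and partners of the complexes that move nucleosomes or write and erase histone marks: the BAF, NuRD, ISWI and CHD remodellers, the histone deacetylases with their corepressor scaffolds, polycomb, the histone acetyltransferases, and the trithorax-type methyltransferases with the histone H3 demethylases of the Kdm6 family. The members were chosen by name, with earlier results of these data known, and are 50 of the 49997 genes counted. They comprise 12 BAF, 9 NuRD, 4 CHD, 3 ISWI, 7 deacetylase, 8 polycomb, 3 acetyltransferase and 4 trithorax and demethylase genes. The study sequenced poly(A) RNA of sorted mouse thymocytes, with 3 libraries in each of 4 groups: DP cells (which carry both CD4 and CD8) and CD4 cells (a later stage that keeps CD4), each either wild type (WT) or with an induced knockout of Satb1 (KO). SATB1 is a nuclear DNA-binding protein that organises chromatin in T cells. All 12 libraries, WT included, are labelled as treated with tamoxifen, the drug that induced the knockout. The replicate number of each library equals its batch number. The labels used here do not state the Cre driver, the age and strain of the animals, the number of animals per library or the sort gates. Nor do they say whether replicate libraries are from different animals, so p-values measure the spread between libraries, which may be in part technical.

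Nucleosome remodellers are machines built around an ATPase, and several of their subunits exist as closely related alternatives that replace each other in the complex. Polycomb repressive complex 2 methylates histone H3 at silent genes through EZH2 or its relative EZH1, and polycomb repressive complex 1 ubiquitinates histone H2A through RING1 or RNF2. NuRD joins a CHD-type remodelling ATPase to histone deacetylases, and BAF, NuRD and polycomb are all used in thymocyte development.

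Total counts per library ran from 22790504 to 62422640, and levels are given as CPM, the count scaled to a common library total, after scaling for library composition, in the order of replicates 1, 2 and 3. Each of the 50 genes passed the filter on low counts in every comparison, and the lowest count of a member in any library was 52. Satb1 itself stood at 3888, 3832 and 3872 CPM in DP WT and 2495, 2873 and 2455 CPM in DP KO, and at 3513, 3299 and 2999.9 CPM in CD4 WT and 1481, 1545 and 1469 CPM in CD4 KO. It was lower in every KO library, by 1.47-fold in DP and 2.18-fold in CD4, but a count over the whole gene includes exons outside a deletion and does not measure how much of the gene was lost. Some DP WT libraries stood apart. Xist, the noncoding RNA that silences an X chromosome in female cells, was at 0.845 CPM in replicate 1 and 0.273 CPM in replicate 2 of DP WT, against 189.6 to 601 CPM in the other 10 libraries. A count was found for 26256 to 33782 genes in DP WT and for 22819 to 27519 in the other groups. Summed over 1428 olfactory receptor genes, which T cells do not use, the level was 20.9 to 36.2 CPM in DP WT and 9.33 to 12.5 CPM elsewhere; per gene and kilobase that is at most 0.0253 CPM, while the lowest member, Chd7, was at 0.168 CPM per kilobase or more.

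By summed level, the WT cells carried the markers of their labels. The summed level of 10 DP stage genes (Rag1, Rag2 and others) was 12697 to 13674 CPM in DP WT and 763 to 1020 CPM in CD4 WT. That of 10 mature CD4 genes was 1905 to 1954 CPM in DP WT and 4106 to 4332 CPM in CD4 WT. Of the latter 10 genes, 9 were higher in CD4 WT and 1, Cd4 itself, was lower. Cd4 was at 1171, 1165 and 995 CPM in CD4 WT against 1419, 1484 and 1377 CPM in DP WT, where it made up most of the sum. In CD4 KO, 9 of the 10 DP stage genes were higher than in CD4 WT (sum 2564 to 3106 CPM). Of the 10 mature CD4 genes, 7 were lower and 0 higher, with a median log2 fold change of -1.39. Their sum in CD4 KO, 1975 to 2202 CPM, was near that of DP WT, but its make-up differed. Cd4 was at 675, 601 and 693 CPM in CD4 KO. Il7r was at 479, 521 and 433 CPM in CD4 KO, against 7.28 to 10.3 CPM in DP WT. S1pr1 was at 149 to 171 CPM in CD4 KO, against 1.56 to 2.56 CPM in DP WT. Il7r, S1pr1 and Klf2 were called neither higher nor lower in CD4 KO than in CD4 WT. In DP KO, 8 of the DP stage genes were lower (sum 7312 to 7579.9 CPM) and 1 was higher. All 24 cell cycle genes listed were higher in CD4 KO, with sums of 4381 to 5275 CPM against 1758 to 2364 CPM in CD4 WT; in DP they summed to 6907 to 7902 CPM in WT and 5001 to 7357 CPM in KO, with 5 of 24 lower. These shifts stand beside every member described below, and their part in the members' differences was not tested. In RNA of sorted populations, a change in the mixture of cells and a change in RNA per cell cannot be told apart. Of 7 general T cell genes the summed level was 3306 to 5794 CPM, with Trac listed at 0 in all libraries. Markers of other cells were low: 8 B cell genes summed to 8.04 to 31.6 CPM (Ighm listed at 0) and 9 myeloid genes to 13.4 to 53.0 CPM. The 7 erythroid genes summed to 23.5 to 332 CPM, mostly from globin genes, and 9 stromal genes to 146 to 215 CPM, nearly all from Pecam1, which T cells also express.

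In DP cells a few members moved strongly after loss of Satb1, and 32 of the 50 did not pass the test. Of the 50, 9 were higher and 9 lower at an adjusted p under 0.05, that is 18% each way, beside 16.8% of all genes tested that were higher and 14.1% that were lower. These shares are near the background. The median log2 fold change of the members was -0.04, against 0.01 over all genes. The genes that rose were Chd3, Mta3, Chd7, Baz1a, Hdac4, Ezh1, Rnf2, Kat2b and Kmt2a, and those that fell were Smarca4, Smarcd2, Arid1a, Arid2, Mbd2, Chd2, Hdac1, Crebbp and Kdm6b. With DP WT replicate 3 as the lone DP WT library, since replicates 1 and 2 stood apart in Xist, 5 rose and 3 fell, beside 6.45% and 4.88% of all genes in that fit: Chd3, Mta3, Baz1a, Hdac4, Rnf2, Smarca4, Arid2 and Kdm6b kept their calls, and the 10 others had an adjusted p of 0.0611 to 0.212. With the replicate number as a block, Chd2 (adjusted p = 0.0517), Crebbp (0.0531) and Ezh1 (0.0631) were no longer called, and Pbrm1 was (0.0455). Without DP KO replicate 1, 5 of the 50 members were lower, beside 1825 of the 17702 genes tested in that fit, a share near the background.

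In CD4 cells more members moved. Of the 50, 17 were higher and 14 lower, or 34% and 28%, beside 20.9% and 18.8% of all genes tested. The median log2 fold change was 0.05, against 0.00 over all genes. With a minimum log2 fold change of 1, 1 member was higher and 1 lower, beside 1424 and 968 of the 17316 genes tested. Those are smaller shares of the members than of all genes. The mean count of a member per library was 693 (Cbx7) or more. The shares of the members were not compared with those of genes of like count. The effect of the knockout differed between the stages, by a test of the difference itself, for 21 members: 13 had a more positive effect in CD4 and 8 a more negative one, or 26% and 16% of the members, beside 14.3% and 13.3% of all genes. The DP and CD4 comparisons share no library, but their libraries carry the same batch numbers. Deviations from group means of same-numbered libraries correlated at 0.230 to 0.486 between DP KO and CD4 KO. Between DP WT and CD4 WT they correlated at 0.147 to 0.265, so the comparisons are not fully independent. Both called 14 members, of which 5 rose in both (Mta3, Baz1a, Hdac4, Rnf2 and Kat2b), 4 fell in both (Arid1a, Chd2, Crebbp and Kdm6b), 3 rose in DP and fell in CD4 (Chd3, Chd7 and Ezh1) and 2 fell in DP and rose in CD4 (Smarca4 and Smarcd2). A further 15 were called in neither: Smarcb1, Smarcc2, Smarcd1, Smarce1, Arid1b, Pbrm1, Chd4, Mta1, Baz1b, Hdac3, Sin3a, Ncor1, Suz12, Kmt2d and Kdm6a. The shares of all genes called in both or in neither were not counted. These overlaps therefore list the members and do not set them apart from other genes.

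**Figure D1:**
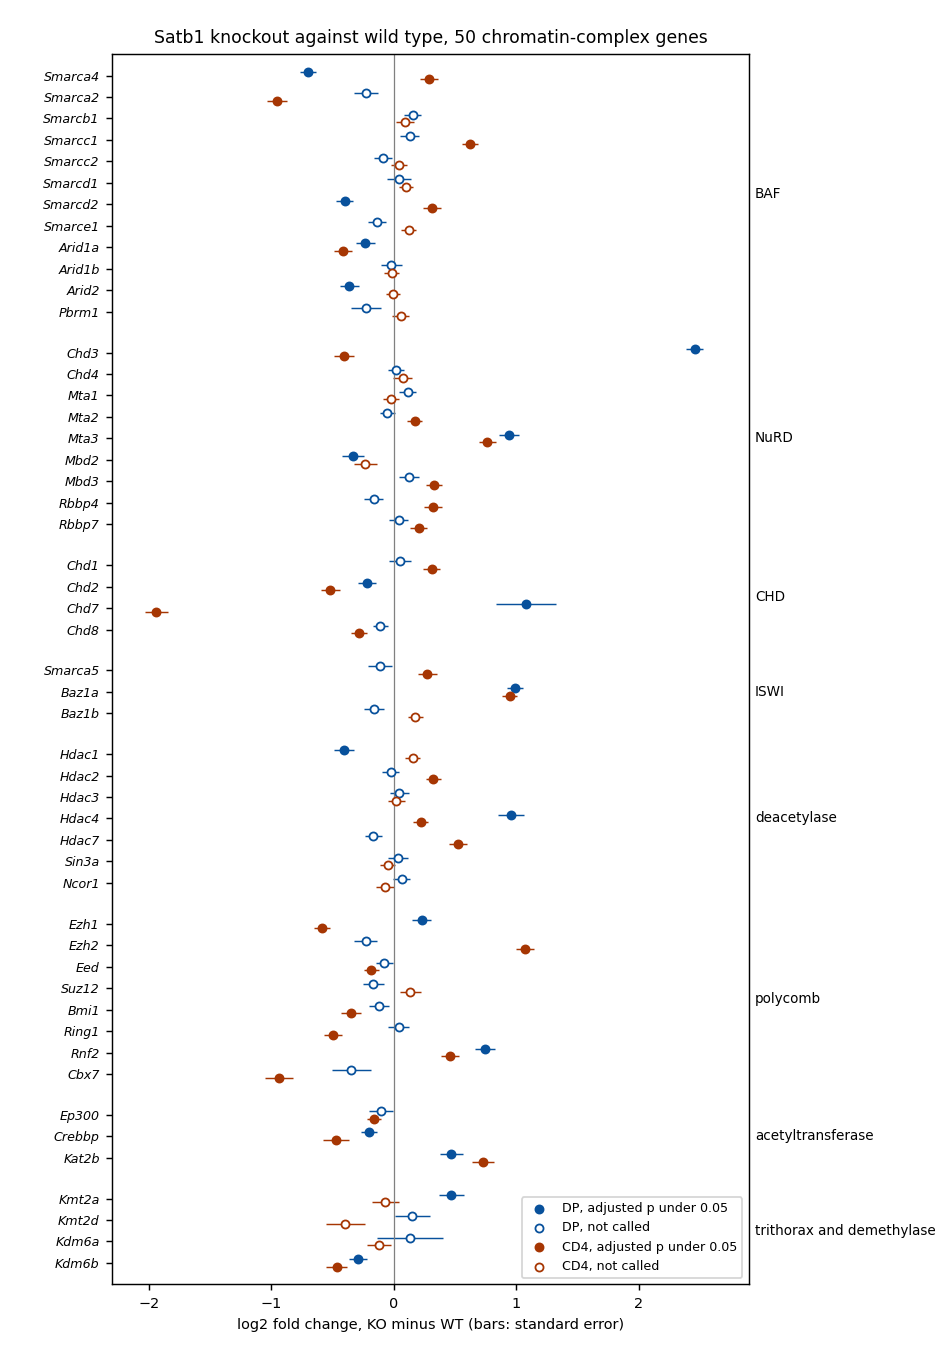
Log2 fold change of KO against WT (x axis, ± standard error) for the 50 genes, arranged by complex, in DP (blue) and CD4 (brown); filled points have an adjusted p under 0.05. Chd3 is the farthest to the right in DP, at 2.46, and Chd7 the farthest to the left in CD4, at -1.94; most other points lie within 1 of zero.

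BAF slides and evicts nucleosomes at enhancers and promoters, driven by SMARCA4 or SMARCA2. In DP 0 of its 12 genes rose and 4 fell, beside 16.8% and 14.1% of all genes tested. In CD4, 3 rose and 2 fell (25% and 16.7%), near the 20.9% and 18.8% of all genes. Smarca4 (chr9:21616106-21704230, plus strand, mm10) stood at 669.8, 703 and 699 CPM in DP WT, 434, 406 and 423 in DP KO, 328, 308 and 281 in CD4 WT and 378, 380.2 and 356 in CD4 KO. Every DP KO library was below every DP WT library, and every CD4 KO library above every CD4 WT library. Smarca4 fell 1.63-fold in DP (log2 -0.70 ± 0.07 SE, adjusted p = 1.96e-05) and rose 1.22-fold in CD4 (0.28 ± 0.07, 0.0109), with a difference between the effects of 1.00 ± 0.09 (2.42e-06). Smarca2 (chr19:26605073-26778321, plus strand) ran the other way between the stages, at 108, 108 and 126 CPM in DP WT, 96.3, 108 and 85.2 in DP KO, 252, 237 and 236 in CD4 WT and 134, 129 and 111 in CD4 KO. The DP groups of Smarca2 touched, and the CD4 groups were far apart: it fell 1.94-fold in CD4 KO (log2 -0.96 ± 0.08, adjusted p = 9.82e-06), against -0.23 ± 0.10 (0.105) in DP. Per kilobase of exon, the ratio of Smarca4 to Smarca2 was 5.49 to 6.44 in DP WT and 3.73 to 4.90 in DP KO. In CD4 the ratio was 1.17 to 1.28 in WT and 2.80 to 3.16 in KO, so the CD4 KO libraries lay between the CD4 WT and the DP libraries.

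Among the other BAF genes, Smarcc1, which encodes a scaffold of the core, was at 231, 253 and 242 CPM in DP WT and 277, 246 and 265 in DP KO, and at 153, 163 and 149.7 in CD4 WT and 246, 244 and 228 in CD4 KO. It rose 1.54-fold in CD4 (log2 0.62 ± 0.06, adjusted p = 3.90e-05), to the range of DP cells, while its relative Smarcc2 showed 0.04 ± 0.07 (0.676). Smarcd2, a core subunit needed for granulocytes, fell from 506, 508 and 482 to 363, 357 and 403 CPM in DP (log2 -0.40 ± 0.07, adjusted p = 0.00152) and rose from 211, 205 and 219 to 249, 253 and 287 CPM in CD4 (0.31 ± 0.07, 0.00592). Its relative Smarcd1 had log2 fold changes of 0.04 and 0.10, neither called. Arid1a, the DNA-binding subunit of canonical BAF, fell in both, from 640.2, 693 and 701 to 578, 524 and 614 CPM in DP (-0.23 ± 0.08, 0.0431) and from 924, 875 and 817 to 686, 646 and 629.5 CPM in CD4 (-0.41 ± 0.07, 0.00124). The DP call of Arid1a was lost without DP WT replicate 2 or 3 or DP KO replicate 1 or 2 (adjusted p = 0.103 to 0.178). Arid2, a subunit of the PBAF form, fell in DP, from 295, 312 and 334 to 246, 226 and 253 CPM (-0.36 ± 0.08, 0.00428), and in CD4 stayed at 197 to 207 CPM in WT and 201 to 204 CPM in KO. Pbrm1, the other PBAF gene, was not called in DP (-0.22 ± 0.12, 0.203), but was without DP KO replicate 3 (0.0231). Smarcb1, Smarce1 and Arid1b had log2 fold changes between -0.14 and 0.15 in both stages and were not called.

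**Figure D2:**
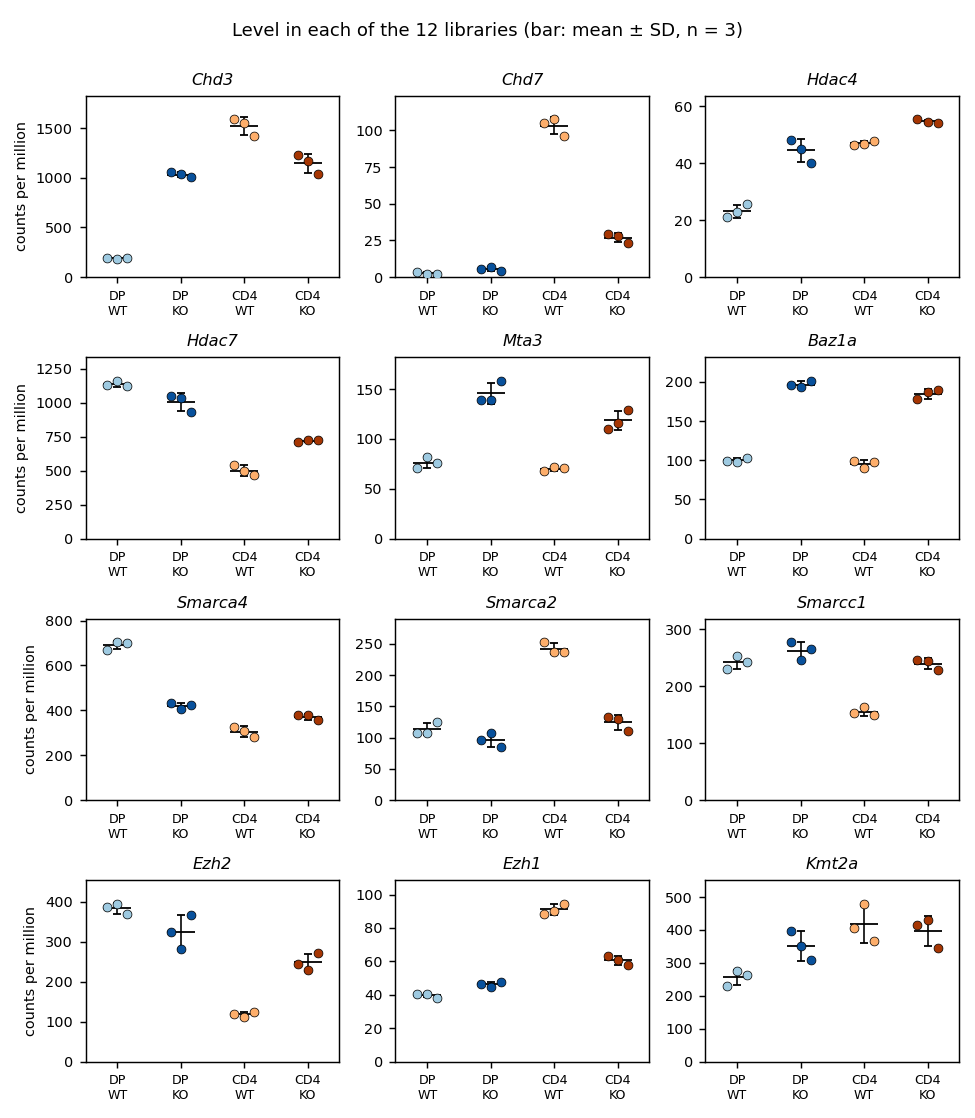
Level in CPM (y axis, from 0) of 12 members in each library of the 4 groups, with the mean and SD of 3 libraries. Chd3 in DP KO (1005 to 1056 CPM) lies near the CD4 libraries rather than near DP WT (183 to 194 CPM), and Ezh2 in CD4 KO (230.0 to 272 CPM) lies between CD4 WT (112 to 124 CPM) and DP WT (369 to 394 CPM).

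The largest change of any member in DP was in NuRD. Its ATPase gene Chd3 (chr11:69343273-69369499, minus strand) stood at 190.5, 183 and 194 CPM in DP WT and at 1056, 1036 and 1005 CPM in DP KO. In CD4 it stood at 1593, 1553 and 1426 CPM in WT and 1229, 1174 and 1038 CPM in KO. The DP KO libraries were all far above the DP WT libraries, and the CD4 KO libraries all below the CD4 WT libraries, so that both KO groups met at 1005 to 1229 CPM. Chd3 rose 5.50-fold in DP (log2 2.46 ± 0.07, adjusted p = 2.65e-09) and fell 1.33-fold in CD4 (-0.41 ± 0.08, 0.00309); the difference between the effects was -2.86 ± 0.10 (1.03e-09). Chd4, the alternative NuRD ATPase, was at 840.3 to 1019 CPM in all 12 libraries and was not called in either stage (log2 0.02 ± 0.06 and 0.07 ± 0.08). Per kilobase the ratio of Chd4 to Chd3 was therefore 5.59 to 6.17 in DP WT, 1.04 to 1.12 in DP KO, 0.690 to 0.722 in CD4 WT and 0.932 to 1.04 in CD4 KO. Per kilobase Chd3 ranked 33 of the 50 members in DP WT and 3 in DP KO, and stood first in both CD4 groups, where in KO its range overlapped that of Chd4.

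The MTA scaffold genes of NuRD diverged. Mta3 rose in both stages, from 71.3, 81.9 and 75.7 to 139, 139 and 158 CPM in DP (log2 0.94 ± 0.08, adjusted p = 8.72e-06) and from 67.5, 71.5 and 70.8 to 110.4, 116 and 129 CPM in CD4 (0.76 ± 0.07, 2.21e-05). No KO library of Mta3 overlapped a WT library of its stage. Mta1 was at 169 to 205 CPM throughout and was not called. Mta2 rose slightly in CD4 (0.17 ± 0.06, 0.0463), a call lost when any 1 CD4 library was left out (0.0589 to 0.159). The ratio of Mta2 to Mta3 per kilobase was 13.4 to 16.1 in DP WT and 6.71 to 7.67 in DP KO, and 11.95 to 13.4 in CD4 WT and 7.71 to 8.70 in CD4 KO. Of the methyl-DNA-binding-domain subunits, Mbd2 fell in DP from 176, 177 and 199.6 to 136, 137 and 162 CPM (-0.33 ± 0.09, 0.0137), which was lost without DP KO replicate 1 (0.0759) or 2 (0.0566). In CD4 Mbd2 was at 140.4, 147 and 165 CPM in WT and 123, 118 and 144 CPM in KO (-0.23 ± 0.09, 0.0676, and 0.00483 with the replicate block). Mbd3 rose in CD4, from 97.5, 93.4 and 96.1 to 114, 127 and 118 CPM (0.33 ± 0.06, 0.00229). The histone chaperone genes rose in CD4: Rbbp4 from 219.6, 219 and 242 to 283, 267 and 300.2 CPM (0.32 ± 0.07, 0.00506), and Rbbp7 from 163, 161 and 181 to 193, 192 and 195 CPM (0.20 ± 0.07, 0.0338). The Rbbp7 call was lost without CD4 replicates 1 or 2 of either genotype (0.0583 to 0.136). Rbbp4 exons overlap those of Sync on the opposite strand over 51.8% of their length, though Sync had few reads (10.5 per library on average).

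Of the other CHD remodellers, Chd7, which acts at enhancers, had the widest range of any member as a fold between libraries, though not in CPM. Chd7 (chr4:8690402-8868449, plus strand) was at 3.43, 2.20 and 2.32 CPM in DP WT, 5.32, 7.11 and 4.32 in DP KO, 105, 108 and 96.5 in CD4 WT and 29.2, 28.0 and 23.3 in CD4 KO. Both KO groups were separate from their WT groups, in opposite directions. Chd7 rose 2.11-fold in DP (log2 1.08 ± 0.24, adjusted p = 0.00656) and fell 3.84-fold in CD4 (-1.94 ± 0.09, 4.68e-07), a difference between effects of -3.01 ± 0.25 (2.36e-06). Chd8, a related ATPase that represses Wnt target genes, was at 239.7 to 323 CPM in all libraries and fell in CD4 from 323, 297 and 286 to 254, 249.7 and 239.7 CPM (-0.29 ± 0.07, 0.00665). Chd1, which remodels nucleosomes behind RNA polymerase, rose in CD4 from 270.4, 257 and 268 to 321, 306 and 357 CPM (0.31 ± 0.07, 0.00677). Its closest relative Chd2 went the other way, from 315, 303 and 276 to 218, 214 and 192 CPM in CD4 (-0.52 ± 0.08, 0.000379) and from 184, 197 and 215 to 167, 173 and 167 CPM in DP (-0.22 ± 0.07, 0.0450). The DP call of Chd2 was lost without any 1 of DP WT replicates 2 and 3 and the 3 DP KO libraries (0.0883 to 0.146). The ratio of Chd1 to Chd2 per kilobase was 2.29 to 2.41 in DP WT and 2.50 to 3.30 in DP KO, and rose from 0.972 to 1.11 in CD4 WT to 1.64 to 2.13 in CD4 KO. Exons of Chd2 overlap the noncoding gene Chaserr over 6.99% of their length, so a share of its reads may be counted there.

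ISWI remodellers space nucleosomes, and their regulatory subunits moved apart. Baz1a, the partner of SMARCA5 in the ACF complex, was at 99.7, 97.3 and 102 CPM in DP WT, 196, 193 and 201 in DP KO, 98.7, 90.6 and 98.2 in CD4 WT and 178, 187 and 189 in CD4 KO. It was close to the same level in both WT groups and was separate from them in both KO groups: it rose 1.99-fold in DP (log2 0.99 ± 0.06, adjusted p = 1.16e-06) and 1.93-fold in CD4 (0.95 ± 0.06, 2.92e-06). The difference between these effects was -0.03 ± 0.08 (0.805). Baz1b, the subunit of the WICH complex, was at 401, 425 and 446 CPM in DP WT and 394, 334 and 399 in DP KO (-0.16 ± 0.08, 0.178). In CD4 it was at 333, 316 and 313 CPM in WT and 377, 348 and 361 in KO (0.18 ± 0.06, 0.0508, and 0.0166 with the replicate block). The ratio of Baz1b to Baz1a per kilobase was 3.36 to 3.65 in DP WT and 2.67 to 2.91 in CD4 WT, and 1.44 to 1.77 in the 6 KO libraries. Smarca5, the ATPase, rose in CD4 from 180.5, 185 and 207 to 229.7, 214 and 247 CPM (0.27 ± 0.08, 0.0187), a call lost without CD4 WT replicate 1 (0.0825) or 2 (0.0780).

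**Figure D3:**
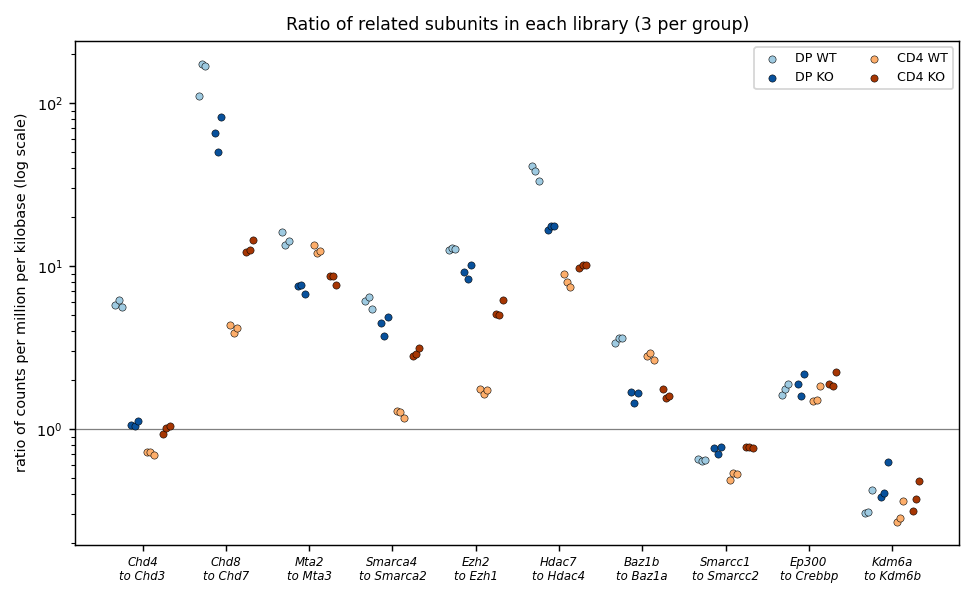
Ratio of related subunits (y axis, log scale, CPM per kilobase of exon) in each of the 12 libraries, coloured by group. For Chd4 to Chd3, Ezh2 to Ezh1, Smarca4 to Smarca2 and Hdac7 to Hdac4 both KO groups lie between DP WT and CD4 WT, for Mta2 to Mta3 and Baz1b to Baz1a both KO groups lie below both WT groups, and for Ep300 to Crebbp and Kdm6a to Kdm6b the groups overlap.

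The deacetylases remove acetyl groups from histones, and the class IIa members HDAC4 and HDAC7 act as signal-controlled corepressors; HDAC7 is abundant in thymocytes and is exported from the nucleus on T cell receptor signalling. Hdac4 (chr1:91928779-92195702, minus strand) was at 21.0, 23.0 and 25.6 CPM in DP WT and 48.2, 45.0 and 40.2 in DP KO, and at 46.4, 46.9 and 47.7 in CD4 WT and 55.4, 54.4 and 54.2 in CD4 KO. The groups were separate within each stage, and DP KO reached the range of CD4 WT. Hdac4 rose 1.94-fold in DP (log2 0.96 ± 0.11, adjusted p = 5.95e-05) and 1.16-fold in CD4 (0.22 ± 0.06, 0.0163); the CD4 call was lost without CD4 WT replicate 1 or 2 or CD4 KO replicate 1 (0.0520 to 0.0588). The effect was smaller in CD4 than in DP by 0.73 on the log2 scale (adjusted p = 0.000288). Hdac7, per kilobase the more abundant of the pair, was at 1128, 1159.5 and 1121 CPM in DP WT, 1046, 1033 and 932 in DP KO, 541, 494 and 464 in CD4 WT and 708, 723 and 725 in CD4 KO. It rose in CD4 (0.53 ± 0.07, 0.000270), and its DP groups did not overlap but did not pass the test (-0.17 ± 0.07, 0.106). The ratio of Hdac7 to Hdac4 per kilobase was 33.5 to 41.0 in DP WT and 16.5 to 17.7 in DP KO, and 7.42 to 8.91 in CD4 WT and 9.75 to 10.2 in CD4 KO.

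Of the class I deacetylases, which are the catalytic subunits of NuRD and of the SIN3 and NCOR complexes, Hdac1 fell in DP from 371, 358 and 303 to 257, 258 and 258 CPM (log2 -0.41 ± 0.08, adjusted p = 0.00340). In CD4 it was at 231, 218 and 219 CPM in WT and 253, 251 and 239 CPM in KO (0.15 ± 0.06, 0.0698, and 0.0322 with the replicate block). Hdac2 rose in CD4 from 108, 106 and 114 to 139, 132 and 139 CPM (0.32 ± 0.06, 0.00192) and not in DP (-0.02 ± 0.07), a difference of 0.36 ± 0.09 (0.00605). Hdac3, the partner of the NCOR corepressors, was at 85.6 to 110.0 CPM in all libraries. Sin3a at 147 to 179 CPM and Ncor1 at 387 to 458 CPM were not called in any comparison of KO with WT. For Ncor1, 29.7% of exon bases overlap Ttc19 on the opposite strand.

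In polycomb repressive complex 2 the methyltransferase genes moved against each other. Ezh2 (chr6:47530274-47595270, minus strand), the form of dividing cells, was at 386, 394 and 369 CPM in DP WT, 323, 282 and 367 in DP KO, 119, 112 and 124 in CD4 WT and 244, 230.0 and 272 in CD4 KO. Ezh1 (chr11:101191115-101226463, minus strand), the form of resting cells, was at 40.8, 40.3 and 38.3 CPM in DP WT, 46.3, 44.8 and 47.6 in DP KO, 88.5, 90.3 and 94.4 in CD4 WT and 63.2, 60.8 and 57.6 in CD4 KO. In CD4 every KO library was above every WT library for Ezh2 and below it for Ezh1. Ezh2 rose 2.10-fold (log2 1.07 ± 0.08, adjusted p = 4.58e-06) and Ezh1 fell 1.50-fold (-0.59 ± 0.06, 5.22e-05) in CD4. In DP, Ezh2 was lower without passing the test (-0.23 ± 0.09, 0.0861; 0.0134 without DP KO replicate 3) and Ezh1 rose slightly (0.23 ± 0.08, 0.0457). The DP call of Ezh1 was lost when any 1 DP library was left out (0.0543 to 0.150). Per kilobase the ratio of Ezh2 to Ezh1 was 12.5 to 12.9 in DP WT, 8.29 to 10.2 in DP KO, 1.64 to 1.77 in CD4 WT and 4.99 to 6.22 in CD4 KO. Ezh2 ranked 4 of the 50 members per kilobase in DP WT, 20 in CD4 WT and 6 in CD4 KO. The summed cell cycle genes moved with Ezh2, at 1758 to 2364 CPM in CD4 WT and 4381 to 5275 CPM in CD4 KO, and their part in the result was not tested.

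The promoters of the Ezh2 and Ezh1 pair are shown because the 2 genes moved in opposite directions. Each window runs from 250 bases before to 50 bases after the start that RefSeq gives (GRCm38.p6), in the direction of the gene. For Ezh1 that start is the outer end of the gene as given above; for Ezh2 it is base 47595030, 240 bases inside the outer end, so the Ezh2 window is that of a start inside the span given for the gene. Capitals mark matches to CCAAT or to the E2F-type octamers TTTCCCGC, TTTCGCGC, TTTGCCGC and TTTGGCGC, on either strand (a CCAAT on the other strand reads ATTGG).
Ezh2, chr6:47594981-47595280, minus strand: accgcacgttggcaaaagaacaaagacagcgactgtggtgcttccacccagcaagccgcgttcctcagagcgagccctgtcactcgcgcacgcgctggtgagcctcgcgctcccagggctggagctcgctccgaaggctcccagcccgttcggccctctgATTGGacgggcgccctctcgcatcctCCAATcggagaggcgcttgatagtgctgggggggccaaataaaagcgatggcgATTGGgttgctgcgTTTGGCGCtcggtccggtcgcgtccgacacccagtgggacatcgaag
Ezh1, chr11:101226414-101226713, minus strand: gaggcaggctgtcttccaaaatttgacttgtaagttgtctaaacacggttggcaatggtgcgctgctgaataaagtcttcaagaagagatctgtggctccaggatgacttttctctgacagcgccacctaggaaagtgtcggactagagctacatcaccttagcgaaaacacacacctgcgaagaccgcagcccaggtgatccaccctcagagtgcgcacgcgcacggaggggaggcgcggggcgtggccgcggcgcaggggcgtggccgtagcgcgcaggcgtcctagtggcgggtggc
The Ezh2 window held 3 CCAAT matches, 90, 64 and 11 bases before this start (first base of each), and 1 E2F-type match that begins at base 4 of the transcribed part, and the Ezh1 window held none of either. Smarca4 and Smarca2 also moved in opposite directions in CD4, and their windows (not shown) held 0 matches of either kind. Of the 38 members with a window in the RefSeq table, an E2F-type match was present in 4 (Arid1a, Ezh2, Smarcd1 and Suz12) and CCAAT in 13; over the 27025 genes of the table the shares were 2.61% and 41.1%, and over its 32851 windows of the same length 2.27% and 37.4%. In CD4 KO, Ezh2 rose, Arid1a fell, and Smarcd1 and Suz12 were not called. The core letters bound by RUNX factors, TGTGGT on either strand, were also searched and were present in 6 of the 38 members, Ezh2 among them (not in capitals), and in 18.9% of all genes (16.8% of all windows). A match describes letters only and says nothing on binding.

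Of the PRC2 core, Suz12 was at 201, 196 and 227 CPM in CD4 WT and 223, 212 and 251 in CD4 KO (log2 0.14 ± 0.08, adjusted p = 0.235), and Eed fell slightly, from 68.0, 68.5 and 73.2 to 62.5, 60.0 and 61.5 CPM (-0.19 ± 0.06, 0.0362). The Eed call was lost when any 1 CD4 library was left out (0.0575 to 0.131). In polycomb repressive complex 1 the alternative ubiquitin ligase genes separated. Rnf2 rose from 79.1, 72.9 and 83.4 to 125, 123 and 143 CPM in DP (0.74 ± 0.08, 6.36e-05) and from 83.2, 85.3 and 91.9 to 112, 116 and 130.4 CPM in CD4 (0.46 ± 0.07, 0.000795). Ring1 was at 29.3 to 32.6 CPM in DP and fell in CD4 from 40.8, 38.5 and 39.9 to 27.6, 28.2 and 28.6 CPM (-0.50 ± 0.07, 0.000365). The ratio of Rnf2 to Ring1 per kilobase was 1.27 to 1.47 in DP WT and 1.05 to 1.19 in CD4 WT, against 1.95 to 2.51 in the 6 KO libraries. Bmi1, a self-renewal gene of the complex, fell in CD4 from 74.9, 81.1 and 93.2 to 65.9, 64.3 and 65.4 CPM (-0.35 ± 0.08, 0.00690). Cbx7, a reader of the polycomb mark, was at 11.6, 13.4 and 12.8 CPM in DP WT and 10.03, 11.8 and 7.62 in DP KO, and fell in CD4 from 21.8, 24.7 and 27.7 to 11.9, 13.2 and 13.6 CPM (-0.94 ± 0.11, 0.000120). Its value is uncertain, since 55.2% of its exon bases overlap Apobec3 on the opposite strand (a mean count of 7572 per library, against 693 for Cbx7), and the strand setting of the counts is not given in the sources used here. In all, 2 of the 8 polycomb genes rose and 5 fell in CD4 (25% and 62.5%, beside 20.9% and 18.8% of all genes), and 2 rose and 0 fell in DP (beside 16.8% and 14.1%).

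The acetyltransferases EP300 and CREBBP are coactivators that mark enhancers, and KAT2B (PCAF) acetylates histone H3 at promoters. Kat2b rose in both stages, from 86.8, 92.8 and 103 to 124, 119 and 146 CPM in DP (log2 0.47 ± 0.09, adjusted p = 0.00312) and from 68.3, 73.9 and 72.0 to 112, 107 and 135 CPM in CD4 (0.73 ± 0.09, 0.000122), with no overlap in either. Crebbp fell from 209, 199.6 and 159.9 to 144, 144 and 122 CPM in CD4 (-0.47 ± 0.11, 0.00643), and from 153, 151 and 155 to 130.2, 138 and 128 CPM in DP (-0.20 ± 0.07, 0.0371), a DP call lost when any 1 library was left out (0.0582 to 0.143). Ep300 fell from 250.5, 245 and 238 to 222, 214 and 219.9 CPM in CD4 (-0.16 ± 0.06, 0.0488), likewise lost without any 1 CD4 library (0.0535 to 0.177). The ratio of Ep300 to Crebbp overlapped between KO and WT in DP, and its ranges met in CD4, at 1.48 to 1.83 in WT and 1.83 to 2.22 in KO.

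Among the trithorax-type genes, Kmt2a (the mixed-lineage leukaemia methyltransferase) was at 231, 274 and 263 CPM in DP WT and 396, 350.1 and 307 in DP KO, and at 405, 479 and 366 in CD4 WT and 415, 431 and 346 in CD4 KO. The DP groups did not overlap, and the CD4 groups did: Kmt2a rose in DP (log2 0.47 ± 0.10, adjusted p = 0.00560) and not in CD4 (-0.07 ± 0.11, 0.681). The difference between these effects was -0.53 ± 0.17 (0.0294), and was lost without DP WT replicate 1, DP KO replicate 1, CD4 WT replicate 2 or CD4 KO replicate 3 (0.0557 to 0.0664). Kmt2d, which marks enhancers, was at 769, 846 and 595 CPM in CD4 WT and 597, 629.7 and 449.5 in CD4 KO. Its groups overlapped (-0.40 ± 0.16, 0.0834), but replicate 3 was the lowest in both and each KO library lay below the WT library of its own batch, and with the replicate block it fell (adjusted p = 8.51e-05). Of the histone demethylases that remove the polycomb mark, Kdm6b fell from 347, 364 and 401 to 304, 301 and 293 CPM in DP (-0.29 ± 0.07, 0.0112) and from 504, 474 and 428 to 367, 342 and 308 CPM in CD4 (-0.47 ± 0.09, 0.00173). Kdm6a, its X-linked relative that escapes X inactivation, was not called. It was highest in replicate 3 of each group, at 132 against 82.2 and 87.3 CPM in DP WT, 143 against 90.9 and 94.5 in DP KO, 121 against 106 and 105 in CD4 WT and 116 against 89.7 and 99.1 in CD4 KO. Ddx3y, a Y-linked gene, was lowest in replicate 3 of each group, at 73.9 against 127 and 109 CPM in DP WT, 40.3 against 112 and 88.6 in DP KO, 93.5 against 107 and 100.3 in CD4 WT and 73.1 against 118 and 80.6 in CD4 KO. Y-linked genes were counted in all 12 libraries and Xist at 189.6 CPM or more in 10, so markers of both sexes were found together in 10 libraries; the part of the sex of the cells in the level of Kdm6a was not tested. Chd3 and Kdm6b lie on the same strand of chromosome 11 with 29008 bases between them, and in DP KO the former rose and the latter fell.

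Across the wild-type stages most of these genes differed. Of the 50, 14 were higher and 20 lower in CD4 WT than in DP WT, or 28% and 40%, beside 28.0% and 27.1% of all genes tested (55.1% in either direction). Lower and higher in CD4 were 7 and 2 of the 12 BAF genes and 4 and 1 of 9 NuRD genes. In that order the counts were 1 and 2 of 4 for CHD and 2 and 0 of 3 for ISWI. Deacetylases had 3 and 1 of 7, polycomb genes 2 and 4 of 8, and acetyltransferases 1 and 1 of 3. Trithorax and demethylase genes had 0 and 3 of 4. The farthest were Chd7 (log2 5.26 ± 0.15), Chd3 (3.01 ± 0.08), Ezh1 (1.19 ± 0.07) and Smarca2 (1.09 ± 0.08) upward, and Ezh2 (-1.70 ± 0.07), Smarcd2 (-1.24 ± 0.06), Hdac7 (-1.19 ± 0.07) and Smarca4 (-1.18 ± 0.07) downward, the highest adjusted p of these being 1.89e-07. Between the KO stages, 6 members were higher and 6 lower in CD4 KO, or 12% each way, beside 13.9% and 7.90% of all genes (21.8% in either direction). With the replicate block the counts were 13 higher and 17 lower, beside 20.8% of all genes that were higher and 18.6% that were lower in that fit. Without CD4 KO replicate 1 or 2, 3 members were higher, beside 1570 of 17446 and 1578 of 17140 genes tested. Without either of these, 2 were lower, beside 653 and 740 genes. Without DP KO replicate 1 or 3, 2 were also lower, beside 808 of 17387 and 1283 of 17806 genes. This comparison shares no library with that of the WT stages, though the batch numbers are the same. Both share their libraries with the comparisons of KO with WT.

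All 34 members called between the WT stages had a smaller absolute stage difference in KO, with a median of 0.63 in WT and 0.18 in KO on the log2 scale. They were chosen by their WT difference, which by itself favours a smaller value elsewhere, and 93.4% of the 9120 genes called between the WT stages and tested in KO were also smaller in KO (median 0.85 in WT and 0.27 in KO). Over all 50 members without that choice, 43 were smaller in KO, or 86%, beside 76.4% of the 16298 genes tested in both. Chd3 went from 3.01 in WT to 0.17 ± 0.08 in KO (adjusted p = 0.156; 0.0102 with the replicate block), Smarca4 from -1.18 to -0.16 ± 0.06 (0.112; 0.0140 with the block), and Hdac1 from -0.63 to -0.04 ± 0.06 (0.698). Chd7 kept 2.28 ± 0.18 (7.07e-05), Bmi1 0.61 ± 0.06 (0.000198) and Smarcd2 -0.49 ± 0.08 (0.00365). Mta3 was called between the KO stages alone (-0.27 ± 0.08, 0.0495), a call lost without any 1 of the 3 DP KO libraries or CD4 KO replicate 1 or 2 (0.0597 to 0.159).

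**Figure D4:**
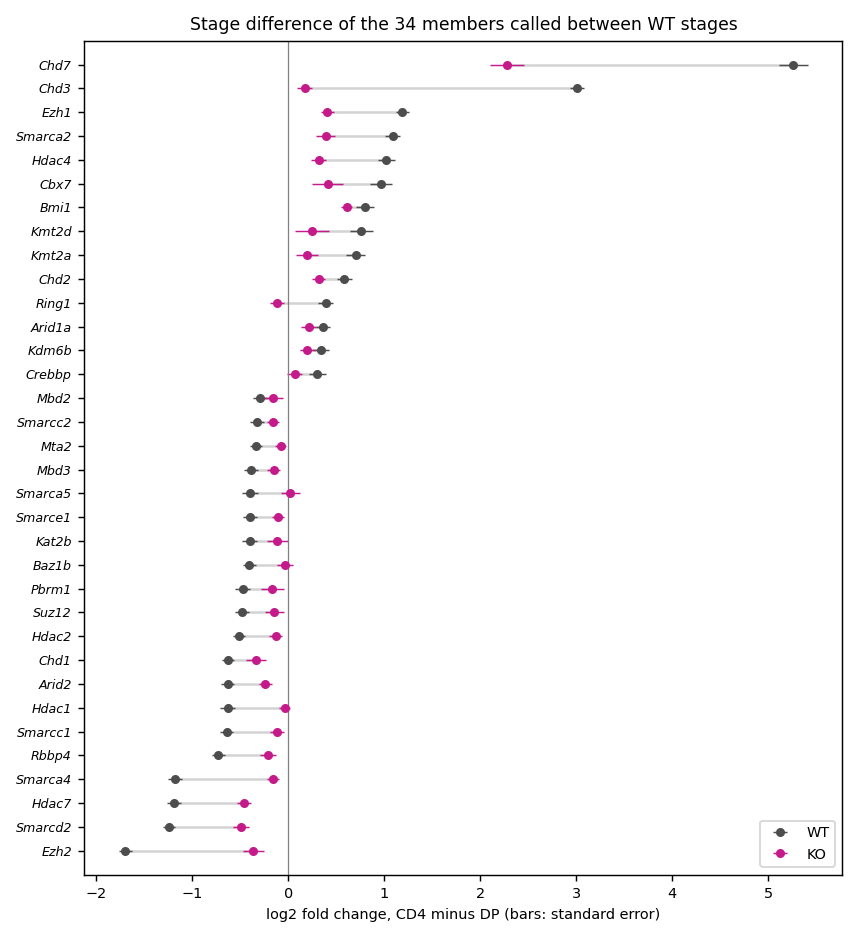
Log2 fold change of CD4 against DP (x axis, ± standard error) in WT (grey) and KO (magenta) for the 34 members called between the WT stages, ordered by the WT value. Each magenta point lies nearer to zero than its grey partner, and those of Chd3, Smarca4 and Hdac1 lie near zero.

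The wider membership of the same complexes, 112 genes in 7 lists, also moved in both directions. In DP, 20 of the 110 tested rose and 20 fell (18.2% each; median log2 fold change -0.01), and in CD4, 24 of 109 rose and 37 fell (22.0% and 33.9%; median -0.03). Over all genes tested the shares were 16.8% and 14.1% in DP and 20.9% and 18.8% in CD4, so the rises in both stages were near the background. By list, rises and falls in DP were 4 and 2 of 16 for BAF, 3 and 0 of 7 for NuRD and CHD, 2 and 4 of 12 for ISWI, INO80 and SRCAP, 3 and 6 of 21 for deacetylases, 3 and 5 of 25 for polycomb, 2 and 1 of 13 for acetyltransferases, and 3 and 2 of 16 for trithorax and demethylase genes. In CD4 they were 6 and 3 of 15, 2 and 2 of 7, 4 and 2 of 12, 4 and 8 of 21, 3 and 7 of 25, 0 and 7 of 13, and 5 and 8 of 16, in the same order.

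The class IIa deacetylase genes outside the 50 moved in opposite directions. Hdac9 was at 1.74, 1.57 and 0.937 CPM in DP WT, 7.75, 8.74 and 9.88 in DP KO, 1.91, 2.37 and 2.65 in CD4 WT and 14.5, 16.1 and 17.2 in CD4 KO. It rose in both stages (log2 2.60 ± 0.22, adjusted p = 9.08e-06, and 2.80 ± 0.16, 1.15e-06). Hdac5 was at 59.8, 58.4 and 59.7 CPM in DP WT and 24.8, 29.1 and 26.8 in DP KO, and at 129.8, 122 and 120.0 in CD4 WT and 54.3, 52.8 and 41.4 in CD4 KO. It fell in both (-1.13 ± 0.08, 3.32e-06, and -1.32 ± 0.10, 6.74e-06), so that of the class IIa genes Hdac4 and Hdac9 rose in both stages, Hdac5 fell in both and Hdac7 rose in CD4. Some cofactors of PRC2 also moved, within a list of 25 wider polycomb genes of which 3 rose and 7 fell in CD4. Aebp2, picked by its adjusted p in DP, and Phf19, picked by its adjusted p in CD4, both rose in CD4. The 7 that fell in CD4 include Jarid2 and Phf1. Aebp2 rose in DP from 111, 129 and 144 to 297, 279 and 324 CPM (1.24 ± 0.10, 5.56e-06) and in CD4 (0.56 ± 0.10, 0.00208). Phf19 rose in CD4 from 8.76, 7.25 and 8.01 to 20.3, 20.6 and 24.1 CPM (1.44 ± 0.12, 1.06e-05) and fell in DP from 40.6, 46.3 and 43.9 to 29.3, 24.3 and 31.0 CPM (-0.62 ± 0.11, 0.00123). The other genes with the smallest adjusted p were Hdac6 (0.77 ± 0.08, against -0.32 ± 0.09 with an adjusted p of 0.0151 in CD4), Sin3b (-0.90 ± 0.08) and Cecr2 (-3.70 ± 0.35) in DP, and Bcl7c (1.74 ± 0.10), Kdm5b (-0.80 ± 0.06) and Ncoa3 (-0.73 ± 0.06) in CD4. Cecr2, a partner of ISWI-type remodellers, was at 3.08, 2.20 and 2.36 CPM in DP WT and 0.197, 0.256 and 0.115 CPM in DP KO.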

How the data were processed

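Poly(A) RNA-seq of sorted mouse thymocytes was analysed in 12 libraries, 3 in each of 4 groups. The deposited values are whole-number read counts per gene, not normalised, in 2 tables of 6 libraries each. The submitters' processing notes name mm10, Subread 1.0.1, DESeq2 and R 4.1.5, without their roles, and no strand setting is stated in the labels. The members, lists and tests were chosen with earlier results of these data known. Counts were tested with edgeR 4.0.16 (quasi-likelihood, TMM scaling, the default low-count filter, R 4.3.3), fitted over all genes of each comparison, with Benjamini-Hochberg adjustment and a threshold of 0.05; every adjusted p in the text is from this test unless another is named. Standard errors were derived from the F statistic (absolute log2 fold change over its root). The difference between the KO effects is the interaction term over all 12 libraries. Levels are CPM with TMM factors over the 12 libraries, and levels of different genes are compared only per kilobase of exon. A count of 3 corresponds to 0.0464 to 0.134 CPM, which covers counting error only.

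Named are Satb1, the 50 members and, of the wider lists, up to 3 genes per direction and KO comparison with the smallest adjusted p. Jarid2 and Phf1 are named as genes of the wider polycomb list that fell in CD4. Alternatives were DESeq2 size factors, DESeq2 1.42.0, limma-voom 3.58.1, other low-count filters, a minimum log2 fold change of 1, the replicate block, 1 model over all libraries, leaving out each library and DP WT replicate 3 as the lone DP WT library. The labels name the replicate number as a batch, which pairs the libraries: deviations from group means correlated at -0.002 to 0.486 (median 0.157) in the 18 same-numbered pairs and at -0.431 to 0.219 (median -0.119) in the 36 others. Promoter windows are from RefSeq (GRCm38.p6), which held 38 of the 50 members. Figures were drawn with Python 3.11.15 and matplotlib 3.10.9. The procedure was tested on simulated counts with the same noise level for every gene and no batch effect. The planted changes were larger than those of most members, so the simulation cannot show how reliable the smaller calls are.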

Additional observations from a re-analysis of the deposited data

Results flagged for a closer look

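For 21 members the effect of the knockout differed between the stages by a test of the difference itself (edgeR interaction term, Benjamini-Hochberg adjusted over 18431 genes, n = 3 libraries per group). Each value below is the log2 effect in CD4 minus that in DP. Of the members 26% were called above 0 and 16% below, beside 14.3% and 13.3% of all genes.

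Above 0 were Ezh2 at 1.31, Smarca4 at 1.00, Smarcd2 at 0.73, Hdac7 at 0.70, Hdac1 at 0.57, Smarcc1 at 0.51, Rbbp4 at 0.50, Smarca5 at 0.40, Arid2 at 0.37, Hdac2 at 0.36, Baz1b at 0.35, Smarce1 at 0.27 and Mta2 at 0.23. Below 0 were Chd7 at -3.01, Chd3 at -2.86, Ezh1 at -0.80, Hdac4 at -0.73, Smarca2 at -0.72, Cbx7 at -0.58, and Ring1 and Kmt2a at -0.53 each. The adjusted p ran from 1.03e-09 (Chd3) to 0.0452 (Cbx7). Leaving out single libraries lost the call for Baz1b, Cbx7, Kmt2a, Mta2, Smarca5 and Smarce1 (adjusted p = 0.0517 to 0.148 where lost), and the other 15 kept it under every alternative on the test, the scaling, the filter and the libraries.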

How the results depend on the processing

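No called member changed direction under any alternative run. Of the members called, 8 of 18 in DP, 25 of 31 in CD4, 30 of 34 between the WT stages, 5 of 12 between the KO stages and 15 of 21 for the difference between KO effects were called in every alternative other than the minimum fold change. The scalings moved the median log2 fold change of all genes by at most 0.02.

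A minimum log2 fold change of 1 left smaller shares of the 50 members than of all genes tested, in each direction of every comparison. Members higher and lower were then 2 and 0 in DP (856 and 1153 of 16776 genes) and 1 and 1 in CD4 (1424 and 968 of 17316). They were 5 and 4 between the WT stages (2391 and 2019 of 17369) and 1 and 0 between the KO stages (1379 and 158 of 16910). For the difference they were 1 and 2 (1462 and 862 of 18431). With DP WT replicate 3 as the lone DP WT library, assumed to vary like the other groups, they were 5 and 3 in DP (1159 and 877 genes), and the difference was called for 1752 and 1618 genes. With the replicate block, the KO stages differed in 13 members higher and 17 lower (3139 genes lower); the pairing moved no other count by over 1.5 times, and its effect on single calls of KO against WT is given with those genes. In the difference between KO effects the block added Chd1, Chd2, Kat2b, Kmt2d, Pbrm1, Rnf2 and Suz12 (adjusted p = 0.00378 to 0.0442).

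Leaving out 1 library at a time, members higher and lower ranged over 8 to 9 and 5 to 9 in DP (1942 to 3085 and 1825 to 2560 genes), 13 to 17 and 12 to 13 in CD4 (2921 to 3567 and 2620 to 3157), 13 to 16 and 19 to 21 between the WT stages (4293 to 4917 and 4158 to 4807), 3 to 7 and 2 to 6 between the KO stages (1570 to 2410 and 653 to 1549), and 9 to 14 and 6 to 10 for the difference (2151 to 2616 and 2066 to 2848). Genes tested in these fits numbered 17258 to 18012 in DP, 17669 to 18189 in CD4 and 18040 to 18565 between the WT stages. They numbered 17140 to 17806 between the KO stages and 19084 to 19573 for the difference. The causes of the changes in calls were not tested. Depth limits few members, since the lowest count was 52.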
